A study of Mus musculus with 9 samples.

Results

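The genes described here are 8 components of the machinery that fuses synaptic vesicles with the plasma membrane, Snap25, Syt1, Stx1a, Vamp2, Cplx1, Syn1, Sv2a and Nsf. They were chosen by name, as the rows of the deposited gene table that carry these symbols, a rule that uses no measured value, although the set was picked with earlier results of these data known. All 8 were found among 21899 genes, and all 8 were among the 12448 genes that passed the filter on low counts. The study profiled mRNA of N2a cells (Neuro-2a, a mouse neuroblastoma line labelled as brain neuroblast) and asked how loss of Arf1, a small GTPase that recruits coats to Golgi membranes, changes gene expression. Control cells expressed a hairpin against luciferase (shlucif), a gene the cells do not have, and Arf1-deficient cells expressed 1 of 2 hairpins against Arf1 (shArf1-1 or shArf1-2), each in 3 libraries and with no further treatment in any group. The 3 shlucif libraries are the common control of both hairpins, so the shArf1-1 and shArf1-2 comparisons share them. All values are from 1 cell line, and the sources used here do not say whether the numbered libraries of a hairpin came from separate cultures or how long the hairpins had been expressed. The p-values therefore measure only the spread between these libraries, which may be technical.

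In neurons, a bundle of SNARE proteins drives the fusion. Vamp2 (synaptobrevin) sits on the vesicle, and Stx1a (syntaxin) and Snap25 sit on the plasma membrane, and zippering of the 3 brings the membranes together. Syt1 (synaptotagmin) senses the calcium that triggers release, complexin holds and primes the partly zippered bundle, and the ATPase Nsf takes spent bundles apart. Syn1 (synapsin) tethers vesicles into a reserve pool and Sv2a is a vesicle membrane glycoprotein. N2a cells express much of this machinery without forming the ordered synapses of mature neurons.

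All 8 are protein-coding genes of GRCm38. On the plus strand lie Snap25 (ENSMUSG00000027273) at chr2:136713453-136782428, Stx1a (ENSMUSG00000007207) at chr5:135023482-135051100, Vamp2 (ENSMUSG00000020894) at chr11:69088490-69092384 and Sv2a (ENSMUSG00000038486) at chr3:96181151-96195521. On the minus strand lie Nsf (ENSMUSG00000034187) at chr11:103821782-103954056, Syt1 (ENSMUSG00000035864) at chr10:108497650-109010982, Cplx1 (ENSMUSG00000033615) at chr5:108518554-108550024 and Syn1 (ENSMUSG00000037217) at chrX:20860511-20921004.

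Library totals ranged from 11182479 to 15594615 counts. Arf1, the targeted gene, had 328, 316 and 328 FPKM (a level scaled for gene length and library total) in the shlucif libraries, 130, 128 and 127 with shArf1-1 and 166, 157 and 171 with shArf1-2, so that all 6 knockdown libraries were below all 3 controls and shArf1-1 was below shArf1-2. Of 14 neuronal markers, 11 passed the filter on low counts, and Nefl, Nefm and Rbfox3 did not. The 14 summed to 2149 to 2193 CPM (counts scaled to a common library total) in shlucif. They summed to 2849 to 3128 in shArf1-1 and 2874 to 2923 in shArf1-2. In the comparison of all Arf1-deficient with shlucif libraries below, 8 of the 11 were called higher and 2 (Mapt and Map2) lower. The other 1 did not pass the threshold given there. Of all tested genes, 31.6% were called higher and 32.9% lower. The 15 macrophage markers summed to 286 to 346 CPM in shlucif, 1.04 to 1.48 in shArf1-1 and 1.23 to 1.91 in shArf1-2, and 6 of them (Ctss, Itgam, C1qa, C1qb, C1qc and Aif1) had 0 counts in all 6 Arf1-deficient libraries. C1qa (0 to 1 counts) and Aif1 (2 to 5 counts) were barely counted in shlucif as well and did not pass the filter on low counts. Fibroblast markers summed to 43.0 to 43.7 CPM in shlucif, 15.8 to 16.1 in shArf1-1 and 21.8 to 23.3 in shArf1-2, and other glial markers to 39.0 to 39.6, 29.0 to 34.3 and 33.1 to 36.2. These marker levels move with the groups in every comparison with shlucif below, and their part in the results was not tested. In such bulk RNA, fewer cells of a type and less RNA per cell cannot be told apart.

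Arf1-deficient cells had more mRNA of 5 of the 8 genes than shlucif cells. Vamp2 was 1.51-fold, Syt1 1.45-fold, Syn1 1.32-fold, Cplx1 1.31-fold and Nsf 1.21-fold higher over all 6 knockdown libraries against 3 controls. None of the 8 fell. Snap25, Stx1a and Sv2a did not pass the threshold, a Benjamini-Hochberg adjusted p under 0.05 in edgeR's quasi-likelihood test over all tested genes. Background rates in this comparison were high, with 31.6% of all tested genes called higher and 32.9% called lower. The median log2 fold change of the 8 was 0.33, beside 0.003 over all tested genes. With each hairpin on its own, 5 of 8 rose with shArf1-1, where 33.1% of all tested genes were called higher, and 7 of 8 rose with shArf1-2, where 30.9% were.

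**Figure D1:**
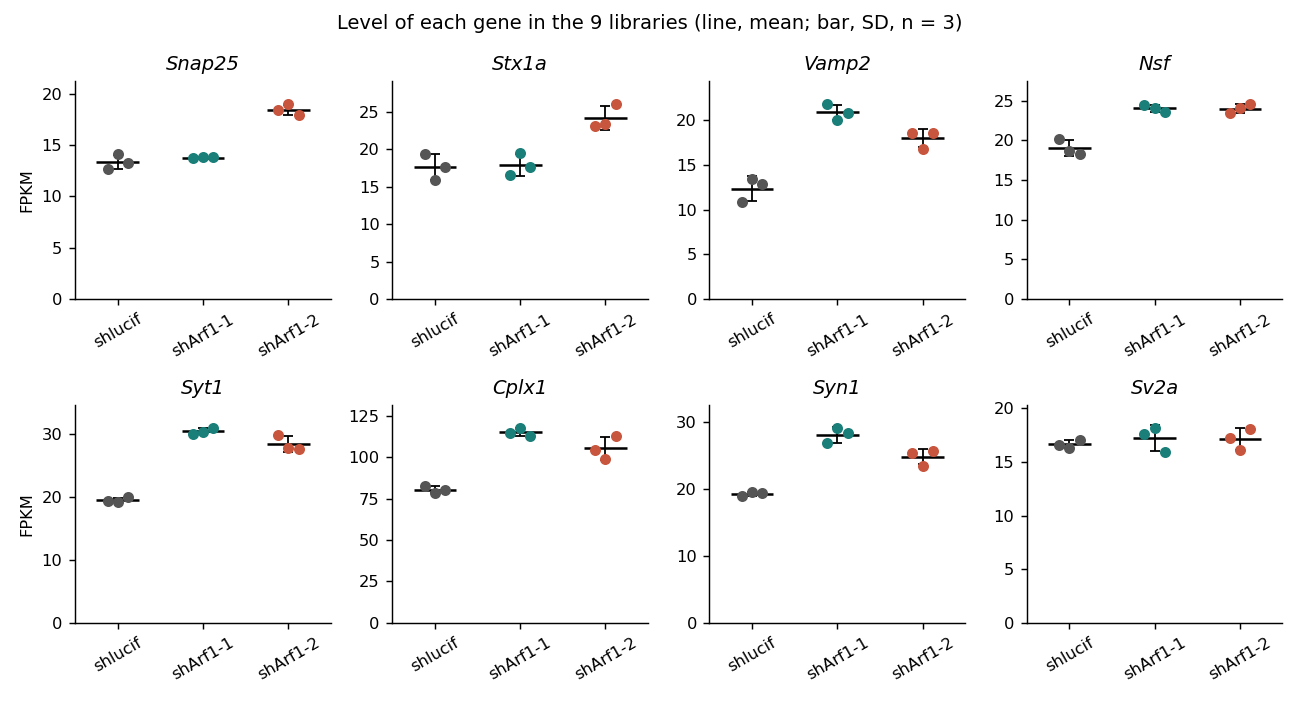
FPKM of each of the 8 genes (y axis, from 0) in every library of shlucif, shArf1-1 and shArf1-2 (x axis), with points for libraries, a line for the group mean and bars for the SD. All 6 Arf1-deficient libraries lie above all 3 controls for Vamp2, Nsf, Syt1, Cplx1 and Syn1, Snap25 and Stx1a stand apart with shArf1-2 alone, and the Sv2a groups overlap.

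Of the 3 SNAREs among the 8 genes, Vamp2 had the largest change over both hairpins. It was at 10.8, 13.4 and 12.8 FPKM in shlucif, 21.8, 20.03 and 20.8 in shArf1-1 and 18.5, 16.8 and 18.6 in shArf1-2. Every Arf1-deficient library was above every control, and the shArf1-1 libraries were above the shArf1-2 libraries. By edgeR's quasi-likelihood test its log2 fold change was 0.59 (SE 0.09, adjusted p = 1.02e-05), and each hairpin passed on its own, shArf1-1 at 0.70 (adjusted p = 4.02e-10) and shArf1-2 at 0.47 (adjusted p = 1.72e-06).

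Snap25, the plasma membrane SNARE that contributes 2 helices to the bundle, had 12.7, 14.1 and 13.3 FPKM in shlucif, 13.8, 13.8 and 13.8 in shArf1-1 and 18.4, 19.0 and 17.9 in shArf1-2. The shArf1-1 libraries lay inside the range of the controls, and the shArf1-2 libraries were above all others. By edgeR, shArf1-1 gave a log2 fold change of -0.01 (adjusted p = 0.934), shArf1-2 gave 0.39 (adjusted p = 4.56e-07) and both hairpins taken as 1 group gave 0.21 (SE 0.11, adjusted p = 0.103). Stx1a, the other membrane anchor of the bundle, followed the same order, with 19.4, 15.9 and 17.7 FPKM in shlucif, 16.6, 19.6 and 17.6 in shArf1-1 and 23.2, 23.4 and 26.01 in shArf1-2. Again the shArf1-1 libraries overlapped the controls and the shArf1-2 libraries were above both. Its log2 fold change by edgeR was -0.04 for shArf1-1 (adjusted p = 0.714), 0.38 for shArf1-2 (adjusted p = 0.000119) and 0.19 over both (SE 0.13, adjusted p = 0.210).

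Nsf rose with both hairpins. It had 20.2, 18.7 and 18.3 FPKM in shlucif, 24.5, 24.1 and 23.6 in shArf1-1 and 23.4, 24.0 and 24.5 in shArf1-2, with the knockdown groups overlapping each other and neither overlapping the control. The edgeR log2 fold change was 0.27 (SE 0.05, adjusted p = 0.000146). The calcium sensor Syt1 had 19.4, 19.3 and 19.9 FPKM in shlucif, 30.1, 30.3 and 31.0 in shArf1-1 and 29.9, 27.9 and 27.6 in shArf1-2. The control libraries were close together and far below all knockdown libraries, and the log2 fold change of 0.53 (SE 0.05) had the smallest adjusted p of the 8 in edgeR's quasi-likelihood test, 8.39e-08.

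Cplx1 was the most abundant of the 8 transcripts per length in every group. It had 82.9, 78.3 and 80.4 FPKM in shlucif, 115, 118 and 113 in shArf1-1 and 105, 98.8 and 113 in shArf1-2. All knockdown libraries exceeded all controls, with a log2 fold change of 0.39 by edgeR (SE 0.06, adjusted p = 1.79e-05). Of the vesicle proteins, Syn1 had 18.9, 19.5 and 19.3 FPKM in shlucif, 26.7, 29.0 and 28.3 in shArf1-1 and 25.3, 23.4 and 25.6 in shArf1-2. No knockdown library reached down to the controls, and its edgeR log2 fold change was 0.40 (SE 0.07, adjusted p = 9.10e-05). Syn1 and Araf lie on opposite strands and share 9 exonic bases, and whether the counting used strand is not given in the sources used here. Sv2a had 16.6, 16.3 and 17.1 FPKM in shlucif, 17.7, 18.2 and 15.9 in shArf1-1 and 17.3, 16.1 and 18.1 in shArf1-2. The 3 groups overlapped, with an edgeR log2 fold change of -0.02 (SE 0.06, adjusted p = 0.821).

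On the TMM-scaled CPM the same 5 genes, Vamp2, Nsf, Syt1, Cplx1 and Syn1, were higher in every Arf1-deficient library than in any shlucif library, a pattern that 27.9% of all tested genes shared. The order of levels per length shifted between groups. In shlucif Cplx1 (80.5 FPKM ± 2.28, SD, n = 3) stood alone, Syt1, Syn1, Nsf, Stx1a and Sv2a followed between 16.7 and 19.5 with ranges that overlapped from each to the next, and Snap25 (13.3 ± 0.722) and Vamp2 (12.3 ± 1.36) came last without differing beyond their spread. Cplx1 and Syt1 kept the first places with both hairpins. With shArf1-1, Vamp2 (20.9 ± 0.864) moved above Stx1a, Sv2a and Snap25 without overlap. With shArf1-2, the ranges of Snap25, Vamp2 and Sv2a (17.1 ± 0.997) overlapped from each to the next at the low end. In shlucif the 8 genes lay between percentiles 66.9 and 95.8 of the tested genes by mean FPKM.

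**Figure D2:**
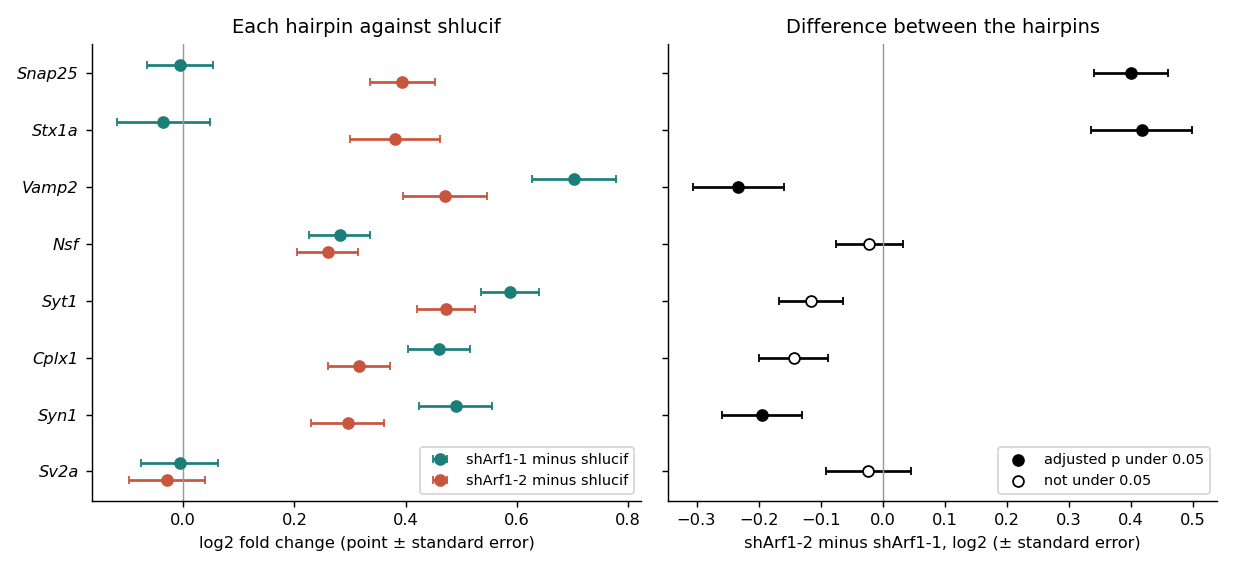
Log2 fold change of each of the 8 genes (axis in log2 units, error bars 1 SE) with shArf1-1 and with shArf1-2, each against the same 3 shlucif libraries (left), and of shArf1-2 over shArf1-1 (right, filled points for an adjusted p under 0.05), from the edgeR fit of 3 groups. Vamp2 (0.70 and 0.47) and Syn1 (0.49 and 0.30) are larger with shArf1-1, Snap25 (-0.01 and 0.39) and Stx1a (-0.04 and 0.38) rise with shArf1-2 only by their own tests, and Sv2a stays near 0.

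The hairpins differed for 4 of the 8 genes when compared directly. Snap25 was higher with shArf1-2 than with shArf1-1 by 0.40 on the log2 scale (SE 0.06, adjusted p = 9.27e-06 in edgeR's quasi-likelihood test) and Stx1a by 0.42 (SE 0.08, adjusted p = 0.00047), against 6.98% of all tested genes called higher. Vamp2 was lower by -0.23 (SE 0.07, adjusted p = 0.0278) and Syn1 by -0.19 (SE 0.06, adjusted p = 0.0368), against 7.46% of all tested genes called lower. The edgeR differences of Nsf (-0.02, adjusted p = 0.851), Syt1 (-0.12, adjusted p = 0.136), Cplx1 (-0.14, adjusted p = 0.0759) and Sv2a (-0.02, adjusted p = 0.878) did not pass. Both lower calls depended on single libraries. By edgeR, Vamp2 missed the threshold without shArf1-1 replicate 1 (-0.20, adjusted p = 0.138) or shArf1-2 replicate 2 (-0.18, adjusted p = 0.170). Syn1 missed it without shArf1-1 replicate 2 (adjusted p = 0.0945) or replicate 3 (adjusted p = 0.0746) and without shArf1-2 replicate 1 (adjusted p = 0.0668) or replicate 2 (adjusted p = 0.195). Cplx1 passed it in edgeR without shArf1-2 replicate 3 (-0.20, adjusted p = 0.0304). The Snap25 and Stx1a differences passed with each library left out in turn. Over both hairpins, Snap25 passed the edgeR threshold without shArf1-1 replicate 1 (0.25, adjusted p = 0.0444) or replicate 3 (0.25, adjusted p = 0.0467).

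Ratios of FPKM within a library show the same differences as proportions between the SNARE transcripts. They do not depend on how libraries are scaled and were chosen after the values were seen, so no test is given. The ratio of Vamp2 to Snap25 was 0.924 ± 0.0602 (SD, n = 3) in shlucif, 1.51 ± 0.0667 in shArf1-1 and 0.976 in shArf1-2. That of Vamp2 to Stx1a was 0.708, 1.17 and 0.743 in the same order. By the tests above Vamp2 alone of the 3 rose with shArf1-1, whereas all 3 rose with shArf1-2, by 0.39 (Snap25), 0.38 (Stx1a) and 0.47 (Vamp2) on the log2 scale. The ratio of Snap25 to Stx1a was 0.763 in shlucif, 0.772 in shArf1-1 and 0.764 in shArf1-2, so the mean proportion of the membrane SNAREs to each other was close in all 3 groups. Cplx1 to Snap25 was 6.05, 8.34 and 5.73, and Syt1 to Snap25 was 1.47, 2.21 and 1.55, again with shArf1-1 above the other groups.

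**Figure D3:**
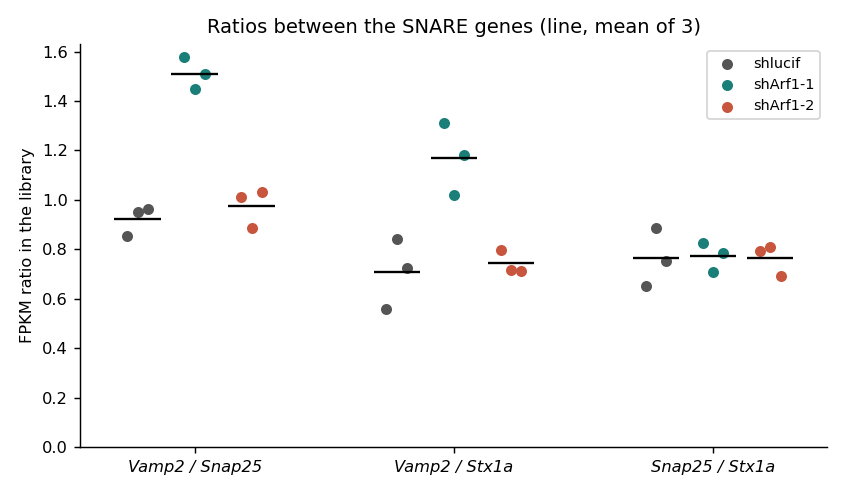
Ratios of FPKM between members within each library (y axis, a ratio without unit), with points for libraries and lines for the mean of each group. Vamp2 to Snap25 and Vamp2 to Stx1a are highest with shArf1-1 (means 1.51 and 1.17), and Snap25 to Stx1a has means of 0.763, 0.772 and 0.764.

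Of the 8 genes, 7 were also set against 1 related gene in the same library. Snap25 was compared with its widely expressed relative Snap23, and their FPKM ratio was 1.52 ± 0.131 (SD, n = 3) in shlucif, 2.18 ± 0.201 in shArf1-1 and 2.66 ± 0.0652 in shArf1-2. With shArf1-1, Snap25 did not pass its own test and Snap23 was lower, at a mean of 6.37 FPKM against 8.81 in shlucif. Vamp2 against Vamp3, the cellubrevin of general membrane traffic, rose in ratio from 0.243 to 0.438 and 0.378, and Nsf against its adaptor Napa from 0.761 to 0.957 and 0.967. In these 3 pairs all Arf1-deficient libraries were above all controls. The complexins and SV2 proteins shifted the other way. Cplx1 to Cplx2 fell from 6.54 in shlucif to 2.78 in shArf1-1 and 2.37 in shArf1-2, without overlap, although both complexins rose. Cplx2 itself had 13.5, 11.5 and 12.1 FPKM in shlucif, 41.3, 42.9 and 40.0 in shArf1-1 and 45.6, 43.6 and 44.5 in shArf1-2. Cplx1 and Cplx2 together went from 92.9 to 156 and 150 FPKM, and the share of Cplx1 in that sum went from 86.7% to 73.6% and 70.3%.

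Sv2a kept its level while Sv2c, its relative on secretory vesicles, had 22.1, 21.6 and 20.95 FPKM in shlucif, 61.6, 66.9 and 67.1 in shArf1-1 and 61.1, 58.8 and 58.2 in shArf1-2. All Sv2c values with knockdown were far above the controls. The ratio of Sv2a to Sv2c was 0.774, 0.265 and 0.289, and Sv2a made up 43.6%, 20.9% and 22.4% of the summed FPKM of both. The remaining pairs overlapped between Arf1-deficient and shlucif libraries, with means of 0.378, 0.340 and 0.362 for Syt1 to Syt11 and 0.629, 0.746 and 0.681 for Syn1 to Syn2. Syt1 and Syt11, and Syn1 and Syn2, all rose. In all, 5 of these 7 ratios separated the Arf1-deficient from the shlucif libraries.

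**Figure D4:**
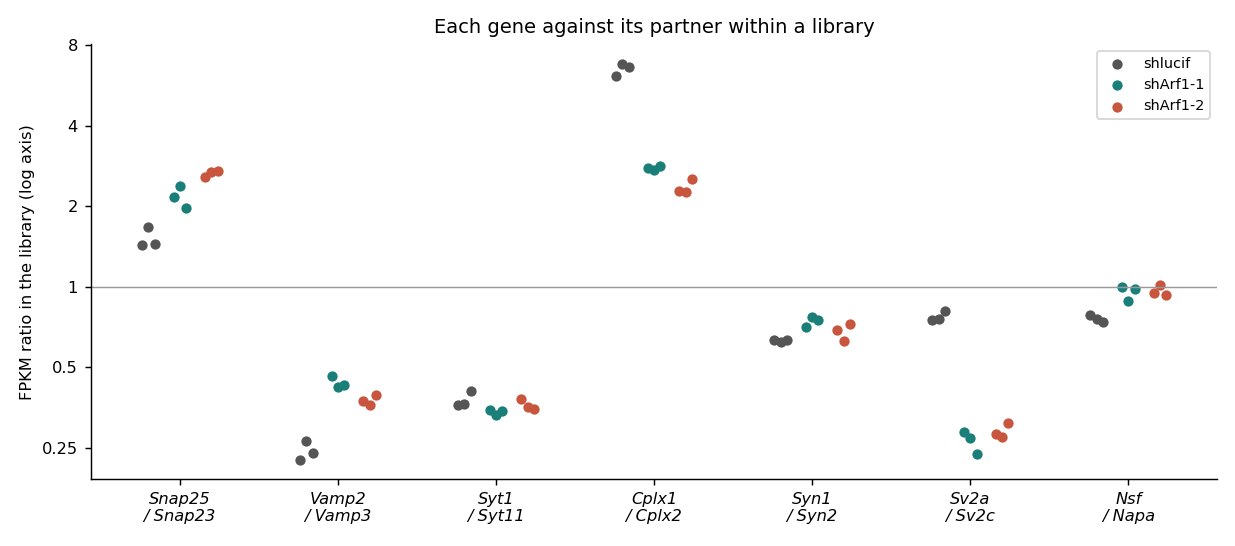
Ratio of the FPKM of 7 of the 8 genes to that of a related gene in the same library (y axis, log scale, no unit), with 1 point for each library of shlucif, shArf1-1 and shArf1-2. Snap25 to Snap23, Vamp2 to Vamp3 and Nsf to Napa are higher in all Arf1-deficient libraries, Cplx1 to Cplx2 and Sv2a to Sv2c are lower, and the other 2 pairs overlap.

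The other genes of the exocytosis and vesicle recycling machinery did not move one way. Of 87 listed genes in the table, 71 passed the filter on low counts (the other 16 had at most 8 counts in any library), and of these 20 rose, 26 fell and 25 did not pass, beside 31.6% higher and 32.9% lower over all tested genes, and the median log2 fold change was -0.05. These shares are near that background and are no result about these genes. With library size alone in place of TMM scaling, 25 rose and 22 fell. Over all tested genes, 4555 were then called higher and 3626 lower, against 3933 and 4094 with TMM. Of the 51 genes called with TMM among the 8 and these 71, none changed direction while 4 lost their call. Of 7 other SNAREs tested, 5 passed the test and all 5 fell, where 32.9% of all tested genes were called lower. They were Stx3 (-0.82), a syntaxin of apical and sensory membranes, Vamp1 (-0.50), the close relative of Vamp2, Snap23 (-0.46), Snap47 (-0.19) and Vamp3 (-0.15). Stx3, at 0.851 to 0.989 FPKM in shlucif, was a low transcript throughout. Thus Vamp2 rose while Vamp1 and Vamp3 fell. The falls of Vamp3 (0.90-fold) and Snap47 (0.88-fold) were small, and for both the FPKM ranges overlapped between Arf1-deficient and shlucif libraries. On TMM-scaled CPM the ranges of Snap47 overlapped as well, and those of Vamp3 did not. Vamp2 went from 18.6% of the summed FPKM of Vamp1, Vamp2 and Vamp3 to 29.4% in shArf1-1 and 26.4% in shArf1-2.

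Among 9 other chaperones and disassembly factors, 1 rose, 4 fell and 4 did not pass. Counts in this and the other short lists stand beside 31.6% of all tested genes called higher and 32.9% called lower. They are no result about a role. Dnajc5 (0.61), the cysteine string protein that keeps Snap25 folded, rose, and its partner Hspa8 (-1.01) fell from between 621 and 647 FPKM in shlucif to between 310 and 355 with knockdown. Stxbp2 (-0.83), the Munc18 form of non-neuronal cells, fell, as did Napb. Of 8 other synaptotagmin and Doc2 genes, Syt3 (1.28), Syt4 (0.79), Syt9 and Syt11 (0.64) rose and Syt2 and Syt5 fell. Syt9 was low, with 5, 9 and 4 counts in shlucif, and its Arf1-deficient and shlucif libraries overlapped. Of 13 complexin and priming genes, 6 rose, among them Cplx2 (1.74) and the active zone genes Rims2 (0.89) and Ppfia2 (0.74), and 4 fell (Cadps, Cadps2, Rimbp2 and Rims3). Cadps and Cadps2, which prime dense core vesicles, were low throughout. Cadps had 46, 33 and 35 counts in shlucif and at most 5 in any Arf1-deficient library, and Cadps2 had 25, 22 and 25 counts and at most 2.

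The 15 other vesicle proteins split into 5 higher, 4 lower and 6 that did not pass. Of all tested genes, 31.6% were called higher and 32.9% lower. Sv2c (1.47) had the largest change among those with at least 5 CPM, and Syngr1 (-0.59) and Sypl (-0.44), both related to synaptophysin, fell, while synaptophysin itself (Syp) and Syngr3 (0.19), another relative, rose. Of 19 endocytosis and recycling genes, which retrieve vesicle membrane after fusion, 4 rose and 7 fell, beside the same shares of all tested genes. Ston1 (-1.04) and Ston2 (0.73), both stonins that sort vesicle cargo, went in opposite directions, and the clathrin adaptor Snap91 (0.49) rose. Between the hairpins, 13 of these 71 genes differed, 5 higher and 8 lower with shArf1-2, beside 6.98% of all tested genes called higher and 7.46% called lower.

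**Figure D5:**
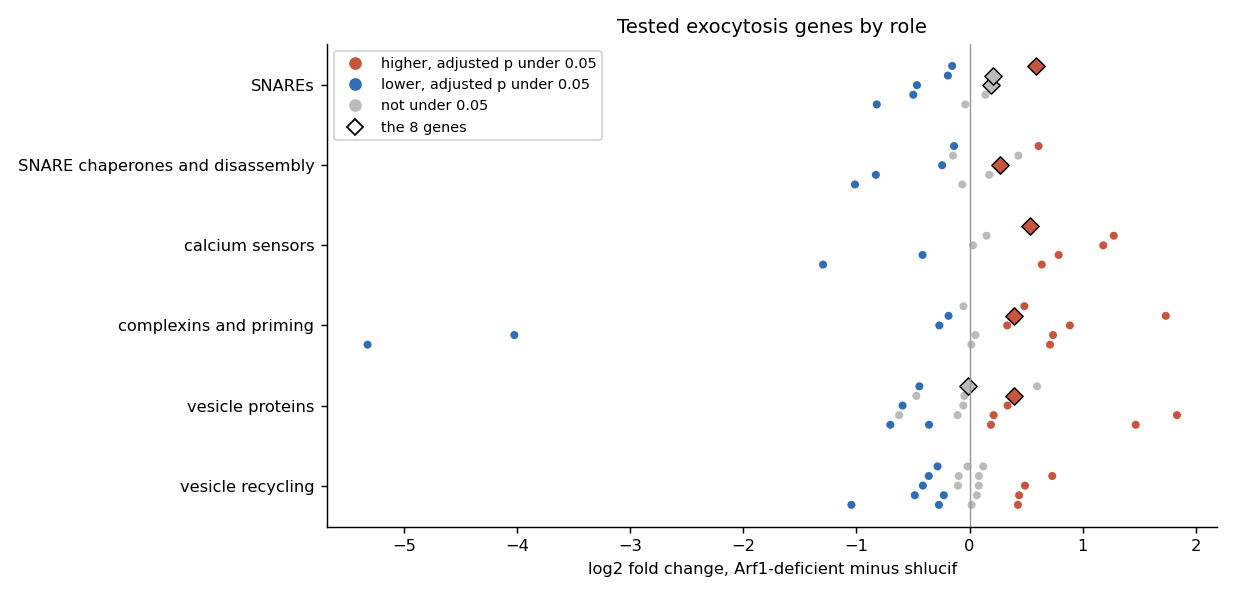
Log2 fold change of Arf1-deficient over shlucif (axis in log2 units) for the tested genes of 6 role lists, with the 8 members drawn apart from the other 71 genes. The other SNAREs that passed the threshold all lie below 0 while Vamp2 lies at 0.59, and the other lists hold genes on both sides of 0.

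Several of the 8 genes are known targets of the repressor Rest, which silences neuronal genes outside neurons and binds an element called RE1. Rest itself had 4.10, 5.59 and 4.55 FPKM in shlucif, 2.35, 2.03 and 2.59 in shArf1-1 and 2.05, 2.38 and 2.16 in shArf1-2. All knockdown libraries were below all controls, with an edgeR log2 fold change of -1.13 (SE 0.10, adjusted p = 1.48e-08). Of its corepressors, Rcor2 was higher (1.39, adjusted p = 6.60e-13 by edgeR), from between 18.6 and 20.2 FPKM in shlucif to between 51.0 and 57.4 with knockdown, and Rcor1 did not pass (0.03, adjusted p = 0.773). Whether Rest has a part in the values of the 8 genes was not tested.

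Promoter windows are shown for a gene that rose with both hairpins (Syn1), one that rose with shArf1-2 only by its own tests (Stx1a) and one that did not pass in any comparison (Sv2a), to set their sequences beside those responses. The windows hold 250 bases before and 50 after the start of transcription in RefSeq on GRCm38.p6, and 6 of the 8 genes were matched there (Snap25 and Vamp2 were not). They are Syn1 on the minus strand at chrX:20920869-20921168, Stx1a on the plus strand at chr5:135023232-135023531 and Sv2a on the plus strand at chr3:96180977-96181276, each written 5′ to 3′ on the strand of its gene. Capitals mark matches, on either strand, to TTCAGCACC (the left part of RE1), GGACAG (its right part), TGACGTCA (the cAMP response element) and GGGCGG (the GC box).
Syn1: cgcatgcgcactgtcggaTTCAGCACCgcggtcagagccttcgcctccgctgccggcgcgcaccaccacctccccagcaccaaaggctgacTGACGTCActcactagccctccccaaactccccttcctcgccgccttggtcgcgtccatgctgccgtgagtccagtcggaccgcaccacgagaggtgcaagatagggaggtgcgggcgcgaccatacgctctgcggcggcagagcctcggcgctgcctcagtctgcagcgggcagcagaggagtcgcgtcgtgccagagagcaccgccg
Stx1a: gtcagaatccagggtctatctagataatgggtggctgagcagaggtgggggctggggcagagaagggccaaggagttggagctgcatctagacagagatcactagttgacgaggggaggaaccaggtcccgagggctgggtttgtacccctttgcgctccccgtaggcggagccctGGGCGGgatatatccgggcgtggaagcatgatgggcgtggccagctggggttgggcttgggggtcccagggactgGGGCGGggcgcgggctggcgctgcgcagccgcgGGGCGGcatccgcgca
Sv2a: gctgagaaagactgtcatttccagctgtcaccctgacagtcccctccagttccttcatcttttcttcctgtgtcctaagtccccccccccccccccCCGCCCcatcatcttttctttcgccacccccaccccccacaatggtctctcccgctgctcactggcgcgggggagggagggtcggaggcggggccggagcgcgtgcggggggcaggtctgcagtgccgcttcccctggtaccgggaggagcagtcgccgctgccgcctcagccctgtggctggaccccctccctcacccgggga

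The Syn1 window holds TTCAGCACC at position -232 from the start of transcription and TGACGTCA at -159. Of 32851 promoter windows of the same length, 0.371% hold the first motif and 1.79% the second. The Stx1a window has 3 GC boxes and the Sv2a window has 1, on the opposite strand, a motif that 35.7% of all windows hold. Cplx1 has 2 GC boxes, the upstream of 2 Syt1 windows has 1 and also GGACAG (held by 22.2% of all windows), and the Nsf window has none of the 4 motifs. Such a match is a description of the letters in the window and does not show binding.

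For each gene, the tested gene outside the lists whose log2 CPM followed it most closely over the 9 libraries was found by Pearson correlation. The libraries form 3 groups, so that a high value mostly reflects like group means, and no p is given. The nearest genes were Tsc22d3 for Snap25 (r = 0.989), Cdh15 for Stx1a (r = 0.964), Med8 for Vamp2 (r = 0.986), Rom1 for Nsf (r = 0.989), Cnot9 for Syt1 (r = 0.996), Srm for Cplx1 (r = 0.994), Kpnb1 for Syn1 (r = 0.992) and Plbd2 for Sv2a (r = 0.941). The number of genes with r over 0.95 separated the members. It was 945 for Syt1, 334 for Cplx1, 320 for Nsf, 289 for Syn1 and 216 for Vamp2, but 6 for Snap25, 1 for Stx1a and 0 for Sv2a.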

How the data were processed

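mRNA of 9 N2a libraries was enriched with oligo(dT), fragmented and sequenced. The authors deposited 1 table with raw read counts and FPKM values per gene in every library. The submitters' processing notes name mm10. The aligner, the counting tool and the use of strand are not given in the sources used here. The file's columns named shArf1_n were taken as shArf1-1 and those named shArf2_n as shArf1-2. Lines broken in the annotation, 8 in all, were left out. Gene positions were looked up by identifier in the GENCODE annotation of GRCm38, and promoter windows came from RefSeq.

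The count tests ran under R 4.3.3 in edgeR 4.0.16, with limma 3.58.1 for FPKM. After filterByExpr, libraries were scaled by TMM and fitted by glmQLFit with robust estimation, comparing 6 Arf1-deficient with 3 shlucif libraries, and in a second fit of 3 groups each hairpin with shlucif and with the other. Calls used a Benjamini-Hochberg adjusted p under 0.05 over 12448 genes. SEs were derived from the fold change and its F statistic. The steps were tested on simulated data. FPKM was used for levels and ratios between genes, and marker sums are CPM of the library total, without TMM scaling. Totals of 11182479 to 15594615 counts per library set the precision, and no 2 libraries of a group agreed within sampling noise.

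The 8 genes and all lists were chosen with earlier results of these data known. Named genes are the 8, Arf1, Rest, a partner gene for 7 of the 8, up to 3 other genes per role list with the largest change among called genes whose higher group reached 5 CPM, and the gene most correlated with each of the 8. Others named from the lists were chosen after their values were seen. Alternatives were DESeq2 1.42.0, its size factors, library size or upper quartile scaling, limma on log2(FPKM + 1), no filter or a minimum of 10 counts per library, a replicate block, the average of both hairpin contrasts, and leaving out each library. Of the listed genes, Stx4 was not analysed here. Some results are not reported here.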

Additional observations from a re-analysis of the deposited data

Results flagged for a closer look

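The effect of the 2 hairpins differed for 4 of the 8 genes by a direct test of shArf1-2 against shArf1-1 in edgeR's quasi-likelihood fit. Of all tested genes, 6.98% were called higher and 7.46% lower in that test. Snap25 was higher with shArf1-2 by 0.40 on the log2 scale and Stx1a by 0.42. Vamp2 differed by -0.23 and Syn1 by -0.19, both being lower with shArf1-2. With 1 library left out in turn, Snap25 and Stx1a passed in all 9 fits, Vamp2 in 7 and Syn1 in 5. Arf1 itself stood at 128 FPKM with shArf1-1 and 165 with shArf1-2, and its part in these differences was not tested.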

How the results depend on the processing

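Against shlucif, the number of the 8 genes called lower was 0 under every alternative run, and the numbers called higher with shArf1-1 (5) and shArf1-2 (7) were the same under every alternative run. Over both hairpins the number called higher was 5, and 7 when the 2 hairpin contrasts were averaged, where Snap25 (0.19, edgeR adjusted p = 0.00127) and Stx1a (0.17, adjusted p = 0.033) also passed. It was 6 without shArf1-1 replicate 1 or replicate 3, where Snap25 passed. Between the hairpins, Snap25 and Stx1a kept their calls, but the number called lower with shArf1-2 went from 2 to 1 with library size only or upper quartile scaling, to 0 with limma on log2(FPKM + 1), and ranged from 0 to 3 when 1 library was left out. Among all tested genes that number was 929 and fell to between 581 and 606 without shArf1-1 replicate 1 (606), shArf1-2 replicate 1 (605) or shArf1-2 replicate 2 (581). The number of other exocytosis genes called ranged from 18 to 25 higher and from 21 to 27 lower. With library size only it was 25 higher and 22 lower, beside 4555 and 3626 of all tested genes. The number of FPKM ratios that separated Arf1-deficient from shlucif libraries was 5, or 6 without shArf1-2 replicate 1 or replicate 2. The 9 pairs of libraries with the same number in different groups had correlations of deviations between -0.082 and 0.094. No shared effect of the replicate number was thus seen, which does not show that the libraries were unpaired. The fit with the replicate block called the same number of the 8 genes, 5 higher over both hairpins, and 3812 of all tested genes higher. None of these results reversed. The causes of these shifts were not tested. With 3 libraries a group, small differences such as those of Syn1 and Cplx1 between hairpins lie near the threshold.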
